A study of Homo sapiens with 12 samples.

Results

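The 9 genes described here encode the enzymes that set the activity of 2 control points of glucose metabolism, and they are PDK1, PDK2, PDK3, PDK4, PDP1, PDP2, PFKFB2, PFKFB3 and PFKFB4. They were picked by gene name, with earlier results of these data known, from a transcript table of 12 RNA-seq libraries of HCT116 cells, an established human colorectal cancer cell line. A transcript was counted for a gene when it either matched a reference transcript of that name in full or shared splice junctions with one. In total 140 transcripts of the 9 genes entered, of which 110 had a value above 0 in at least 1 library, and they make up 9 of 56537 gene names so chosen from the table. Cells were kept in 21% O2 (0 h) or moved to 1% O2 for 1, 2 or 24 h, in RPMI medium with serum, and poly(A) RNA of 3 biological replicates per time point was sequenced with a strand-specific protocol. No allele, drug or second cell line was part of the design. Hypoxia was started 24 h after plating, and the sources used here do not state when after plating the 0 h cells were collected, so hypoxia and the time in culture cannot be told apart. Because the libraries are of bulk RNA, a change in the make-up of the culture and a change in the RNA per cell cannot be told apart either.

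Pyruvate dehydrogenase is the mitochondrial complex that turns pyruvate into acetyl-CoA and so commits glucose carbon to respiration. The pyruvate dehydrogenase kinases PDK1 to PDK4 phosphorylate the complex and shut it down, and the phosphatases PDP1 and PDP2 remove the phosphate and restore it. The PFKFB enzymes carry a kinase and a phosphatase in the same protein and make or break fructose 2,6-bisphosphate, the strongest activator of phosphofructokinase, the committed step of glycolysis. PDK1, PFKFB3 and PFKFB4 are textbook targets of the hypoxia-inducible factors, which bind a short DNA element with the core ACGTG or GCGTG.

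The level of a gene is its summed FPKM, a fragment count scaled for transcript length and for the depth of the library, so that genes can be set side by side. Each later time point was compared with 0 h by limma, fitted to log2(FPKM + 0.5) of the 12 libraries, with p-values adjusted over the 16680 genes with more than 0.5 FPKM in at least 3 libraries. A call needed a log2 fold change beyond 1 in either direction and an adjusted p below 0.01. On this scale the change of a gene with low FPKM is understated. After 24 h, 5 of the 9 genes were called, PDK1, PDK3, PDK4, PFKFB3 and PFKFB4, and all 5 were higher. PDK4 passed the filter only through its 24 h libraries, where it is high, and so had to differ. Without it, 4 of the 8 genes that pass in the other libraries were called. Among all genes tested, 8.76% were called higher and 9.51% lower at 24 h. None of the 9 genes was called at 1 h or at 2 h, when 0.006% and 0.018% of all genes were called in either direction. These shares stand for 1 gene at 1 h and 3 genes at 2 h, while 769 and 2547 genes had an unadjusted p under 0.05. At 24 h that number was 10001 of 16680, so a difference from 0 h was common then. How many of all genes had libraries that did not overlap those at 0 h was not counted. A lack of overlap is therefore given below as a description only. Of the 9 genes, 1 had an unadjusted p under 0.05 at 1 h or 2 h, namely PDK1 at 2 h. These counts are from the fit that does not pair libraries by replicate number. PDK1, PDK3, PDK4 and PFKFB3 were higher at 2 h than at 0 h in each pair of same-numbered libraries, and the other members were mixed. With the replicate number in the fit, no member was called at 2 h.

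**Figure D1:**
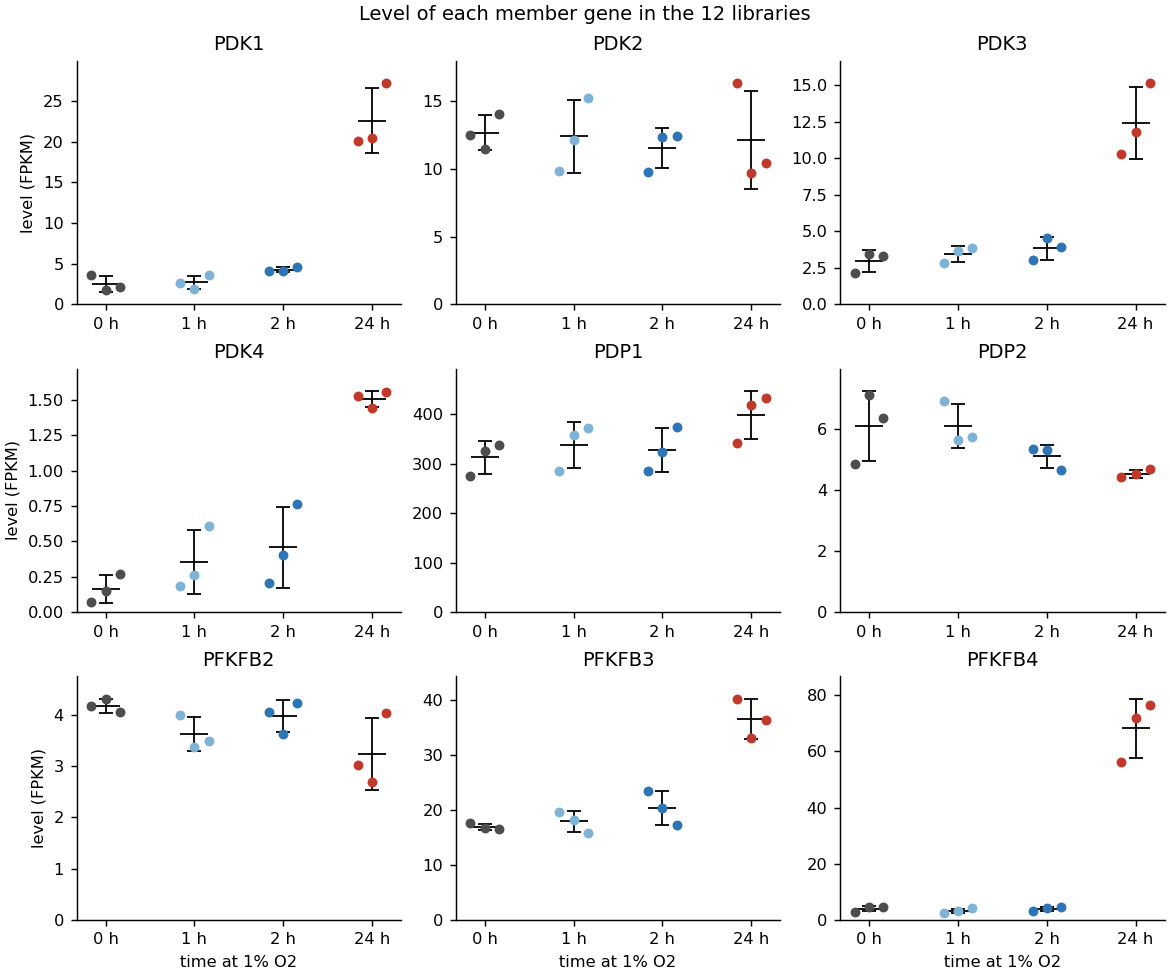
Level of each gene in FPKM (y axis, from 0, a separate scale per panel) in the 3 libraries at 0, 1, 2 and 24 h in 1% O2, with the mean and SD (bars). PDK1, PDK3, PDK4, PFKFB3 and PFKFB4 stand apart at 24 h, while the PDK2 libraries at 0 h and 24 h overlap.

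All 9 genes passed the filter on low values, PDK4 in 5 libraries and the others in 12. The highest level before hypoxia was that of PDP1 at 313 ± 33.1 FPKM (SD, n = 3), a level that could not be checked against reads here, followed by PFKFB3 at 16.9 ± 0.556, PDK2 at 12.7 ± 1.27 and PDP2 at 6.11 ± 1.15 (mean ± SD, n = 3 each), and the libraries of neighbours in this order did not overlap. PFKFB2, PFKFB4, PDK3 and PDK1 came next with means between 2.53 and 4.18 FPKM, and each of them overlapped its neighbour in this order. PDK4 was last at 0.163 ± 0.0973 FPKM (SD, n = 3). At 24 h the order below PDP1 was PFKFB4, PFKFB3, PDK1, PDK3, PDK2, PDP2, PFKFB2 and PDK4, and PDK3 and PDK2 were the only neighbours whose libraries overlapped.

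PDK1, the pyruvate dehydrogenase kinase best known as a hypoxia target, had the largest change of its family on the log2(FPKM + 0.5) scale. As a plain ratio of means between 24 h and 0 h it was 8.94, against 9.24 for the far scarcer PDK4. Its level was 3.62, 1.77 and 2.19 FPKM at 0 h, 2.61, 1.90 and 3.59 at 1 h, 4.11, 4.15 and 4.60 at 2 h and 20.05, 20.5 and 27.2 at 24 h. All 3 libraries at 24 h were far above every earlier library, and the 2 h libraries also lay above those at 0 h without overlap. The log2 fold change was 2.96 (SE 0.23) at 24 h (limma, adjusted p = 1.3e-06), which placed PDK1 at rank 51 of 16680 genes by increase. At 2 h it was 0.71 (SE 0.23) and did not pass the adjustment (limma, adjusted p = 0.21). The gene lies on chromosome 2 (GRCh37, 173420101 to 173473397, plus strand), and the antisense gene PDK1-AS1 on the minus strand (173345568 to 173421324) overlaps its first bases. Cufflinks was run with the strand setting of these libraries, per the study's methods.

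PDK3, a kinase of high activity towards the complex, also rose. It measured 2.12, 3.45 and 3.33 FPKM at 0 h, 2.87, 3.67 and 3.86 at 1 h, 3.02, 4.57 and 3.92 at 2 h and 10.3, 11.8 and 15.2 at 24 h. The 24 h libraries did not overlap any other, while those of the first 3 time points overlapped each other. Its log2 fold change at 24 h was 1.91 (SE 0.21; limma, adjusted p = 1.2e-05). PDK3 is on the X chromosome (GRCh37, 24483361 to 24568583, plus strand).

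PDK4, the kinase linked to fasting and fatty acid use, was scarce throughout. Its libraries held 0.0737, 0.150 and 0.267 FPKM at 0 h, 0.185, 0.264 and 0.610 at 1 h, 0.205, 0.401 and 0.766 at 2 h and 1.53, 1.45 and 1.56 at 24 h. The log2 fold change at 24 h was 1.61 (SE 0.25; limma, adjusted p = 0.00017), and the gene was above 0.5 FPKM in 2 libraries outside 24 h, too few to enter the test without those of 24 h. The change on this scale depends on the constant added before the logarithm and ranged from 1.11 to 2.68 over the alternatives. PDK4 remained the least abundant of the 9 genes at 24 h, on chromosome 7 (GRCh37, 95212811 to 95225828, minus strand).

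PDK2, the most widely expressed of the kinases and the leading one here before hypoxia, was not called. Its level was 12.5, 11.5 and 14.0 FPKM at 0 h, 9.84, 12.1 and 15.2 at 1 h, 9.78, 12.3 and 12.4 at 2 h and 16.3, 9.69 and 10.4 at 24 h. The time points overlapped, and the 24 h libraries spanned a wider range than those at 0 h. The log2 fold change at 24 h was −0.09 (SE 0.20; limma, adjusted p = 0.72). With a library left out it ranged from −0.315 to 0.0456, with an adjusted p of 0.15 or more (limma), so its sign is not settled. PDK2 is on chromosome 17 (GRCh37, 48172101 to 48189516, plus strand).

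The promoter windows of these kinases are shown because PDK1 and PDK3 rose and PDK2 did not. Each window runs from 250 bases before to 50 bases from the start site on, was taken from RefSeq (GRCh38.p14 table) and was placed on GRCh37 by a match of all 300 bases, with 1 match each. The table holds 2 windows for PDK1 and 3 for PDK2, and those shown are the ones with a match. Capitals mark ACGTG or GCGTG on either strand, so CACGT and CACGC are marked too.
PDK1, GRCh37 chr2:173420568-173420867, plus strand: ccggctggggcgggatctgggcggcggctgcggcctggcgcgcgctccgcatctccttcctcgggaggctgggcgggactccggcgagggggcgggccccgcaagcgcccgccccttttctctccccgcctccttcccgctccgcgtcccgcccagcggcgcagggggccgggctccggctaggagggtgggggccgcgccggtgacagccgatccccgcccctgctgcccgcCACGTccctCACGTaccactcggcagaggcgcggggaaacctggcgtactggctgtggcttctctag
PDK3, GRCh37 chrX:24483153-24483452, plus strand: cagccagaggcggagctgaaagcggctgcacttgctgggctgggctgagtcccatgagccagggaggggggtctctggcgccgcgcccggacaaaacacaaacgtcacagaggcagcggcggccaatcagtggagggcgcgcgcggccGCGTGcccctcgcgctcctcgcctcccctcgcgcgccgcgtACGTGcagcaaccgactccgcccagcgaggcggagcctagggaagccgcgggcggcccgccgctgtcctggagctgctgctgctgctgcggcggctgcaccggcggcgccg
PDK2, GRCh37 chr17:48172465-48172764, plus strand: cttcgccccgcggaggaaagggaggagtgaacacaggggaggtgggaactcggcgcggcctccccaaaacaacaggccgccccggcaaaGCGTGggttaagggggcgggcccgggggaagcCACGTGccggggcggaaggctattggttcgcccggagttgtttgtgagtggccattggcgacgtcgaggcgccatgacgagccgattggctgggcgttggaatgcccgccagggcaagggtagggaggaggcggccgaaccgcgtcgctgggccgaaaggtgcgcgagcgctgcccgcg
The PDK1 window held ACGTG 2 times on the opposite strand of the window, at positions −17 and −8 relative to its start site. That start site, 173420818, lies 12 bases from a small start-site group, while the main PDK1 group begins at 173420779, so both matches lie downstream of the main start. In the PDK3 window there was 1 GCGTG and 1 ACGTG, and in the PDK2 window shown 1 GCGTG and the palindrome CACGTG, which counts as 2 overlapping matches of ACGTG. Such matches are common: of 35116 promoter windows of this length, 21.4% held ACGTG, 36.5% held GCGTG, 48.4% held either and 23.1% held at least 2 matches. The other PDK1 window and the 2 other PDK2 windows held none, among them the window at the leading PDK2 start site, which held 40.5% ± 5.05 of that gene at 0 h (SD, n = 3). The window of PDK4 held none either. A match is a description of the letters, and binding was not measured.

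Neither of the phosphatases that oppose these kinases was called. PDP1, the calcium-stimulated form, had 275, 325 and 337 FPKM at 0 h, 285, 357 and 372 at 1 h, 286, 324 and 375 at 2 h and 343, 419 and 433 at 24 h. The lowest library at 24 h lay just above the highest at 0 h, and the log2 fold change was 0.35 (SE 0.14; limma, adjusted p = 0.053). PDP2, the form that insulin is known to stimulate, had 4.86, 7.12 and 6.36 FPKM at 0 h, 6.94, 5.66 and 5.75 at 1 h, 5.36, 5.32 and 4.68 at 2 h and 4.42, 4.52 and 4.69 at 24 h. Its libraries at 24 h were all below those at 0 h, and its log2 fold change of −0.38 (SE 0.14; limma, adjusted p = 0.042) did not reach the size or the adjusted p needed for a call. It was −0.09 when only transcripts that match the reference in full were summed (limma, adjusted p = 0.83) and −0.19 when low transcripts were left out (limma, adjusted p = 0.47). PDP1 lies on chromosome 8 (GRCh37, 94870035 to 94938296, plus strand) and PDP2 on chromosome 16 (66912492 to 66929657, plus strand).

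**Figure D2:**
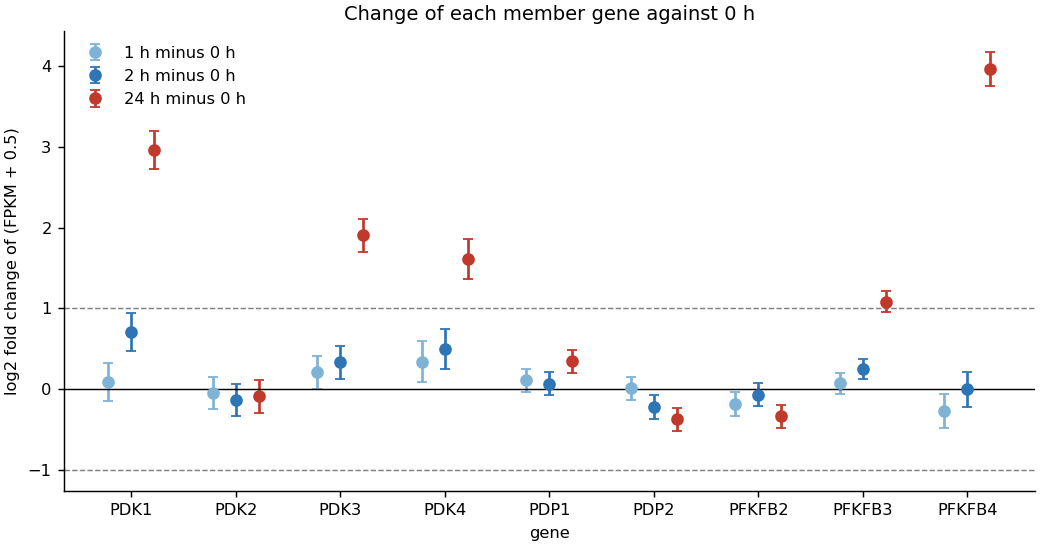
Log2 fold change of (FPKM + 0.5) against 0 h (y axis) of each gene (x axis) at 1, 2 and 24 h, with the standard error from limma (bars) and dashed lines at the size needed for a call. At 24 h PFKFB4 stands at 3.96 and PDK1 at 2.96, and the points of 1 h and 2 h lie within the dashed lines for all 9 genes.

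PFKFB4, a member of the family first described in testis and found in many tumours, had the largest increase of the 9 genes. It measured 2.83, 4.48 and 4.56 FPKM at 0 h, 2.42, 3.07 and 4.05 at 1 h, 3.08, 4.24 and 4.40 at 2 h and 56.4, 71.8 and 76.7 at 24 h. The first 3 time points overlapped and the 24 h libraries were all above 50 FPKM. The log2 fold change was 3.96 (SE 0.21; limma, adjusted p = 1.2e-07), the 15th largest increase of 16680 genes. At 2 h its adjusted p was 1.0 (limma).

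PFKFB3, the form with the highest kinase over phosphatase activity, rose less in fold but from a higher level. Its libraries held 17.6, 16.8 and 16.5 FPKM at 0 h, 19.7, 18.3 and 15.8 at 1 h, 23.5, 20.4 and 17.2 at 2 h and 40.3, 33.1 and 36.4 at 24 h. The 24 h libraries were above all others, and the log2 fold change of 1.08 (SE 0.13; limma, adjusted p = 2.2e-05) was close to the size needed for a call. Under 1 alternative, in which each library was scaled to the same sum over transcripts of at least 300 bases, it was 0.9995 and PFKFB3 was not called.

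PFKFB2, the heart form of the enzyme, was not called. It had 4.18, 4.32 and 4.05 FPKM at 0 h, 4.002, 3.38 and 3.50 at 1 h, 4.05, 3.64 and 4.25 at 2 h and 3.02, 2.68 and 4.04 at 24 h. The highest library at 24 h was just below the lowest at 0 h, and the log2 fold change was −0.34 (SE 0.15; limma, adjusted p = 0.069). PFKFB1, the liver form, lay between 0.0739 and 0.439 FPKM in the 12 libraries and was not tested. PFKFB2 is on chromosome 1 (GRCh37, 207207711 to 207254369, plus strand), PFKFB3 on chromosome 10 (6186897 to 6296607, plus strand) and PFKFB4 on chromosome 3 (48555117 to 48599448, minus strand).

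Promoter choice was examined through start-site groups, in which Cufflinks joins transcripts that begin at the same place. A group is not always a separate promoter. The reference starts of 2 main PDP1 groups, 94929151 and 94929162, lie close together, and 2 others share 94929975. Short transcripts that begin inside a gene also form groups. The 2 main groups of PFKFB3 begin far apart. The 9 genes had 59 such groups, and 25 of them passed the filter in genes with at least 2 groups. The usage of a group is the log2 ratio of its FPKM to that of the rest of the gene, with 0.5 added to both, and it was tested at 24 h with limma at an adjusted p under 0.05 over 31006 groups. Usage differed for 4 of the 25 groups, and for 9.6% of all groups tested. These 4 were the 2 main groups of PFKFB3, a small group of PFKFB4 and a small group of PDP1. The 2 PFKFB3 groups mirror each other and stand for a single change. The PFKFB4 group was among 4 of the 25, together with a further one of PFKFB4 and 2 of PDK1, that passed the filter only through the 24 h libraries. Without these, 3 of 21 groups differed, and 2 of the 3 are the mirrored PFKFB3 groups.

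The increase of PFKFB3 came mostly from its downstream start site, which was added to an upstream one that stayed in use. The upstream group, whose leading transcript ENST00000379789 begins at position 6186897 of chromosome 10 (GRCh37), measured 15.9, 14.9 and 14.6 FPKM at 0 h, 17.8, 16.4 and 13.7 at 1 h, 21.995, 18.4 and 15.2 at 2 h and 16.8, 16.4 and 17.2 at 24 h. The downstream group, led by ENST00000379775 and beginning 57998 bases further on at position 6244895, measured 1.68, 1.79 and 1.82 FPKM at 0 h, 1.92, 1.59 and 1.65 at 1 h, 1.52, 1.98 and 1.98 at 2 h and 23.3, 16.2 and 19.1 at 24 h. The downstream libraries at 24 h thus stood far above all others. The upstream ones at 24 h lay within the range of the 2 h libraries, and their lowest, 16.4, was just above the highest at 0 h, 15.9.

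The share of PFKFB3 held by the upstream group was 89.2% ± 1.06 before hypoxia, 89.1% ± 1.79 after 1 h, 90.7% ± 2.62 after 2 h and 46.1% ± 4.08 after 24 h (mean ± SD, n = 3 each). The downstream group held 10.4% ± 0.766, 9.64% ± 0.891, 9.22% ± 2.57 and 53.1% ± 4.54 at the same times (mean ± SD, n = 3 each). Downstream usage rose by 2.97 on the log2 scale (SE 0.25; limma, adjusted p = 0.00018), and upstream usage fell by 2.97 (SE 0.24; limma, adjusted p = 0.00014). The 2 groups hold nearly all of the gene, so these values are a single change read from both sides. The upstream FPKM itself did not fall. Both passed the test under each of the 21 alternatives, with a downstream change between 2.72 and 3.21.

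**Figure D3:**
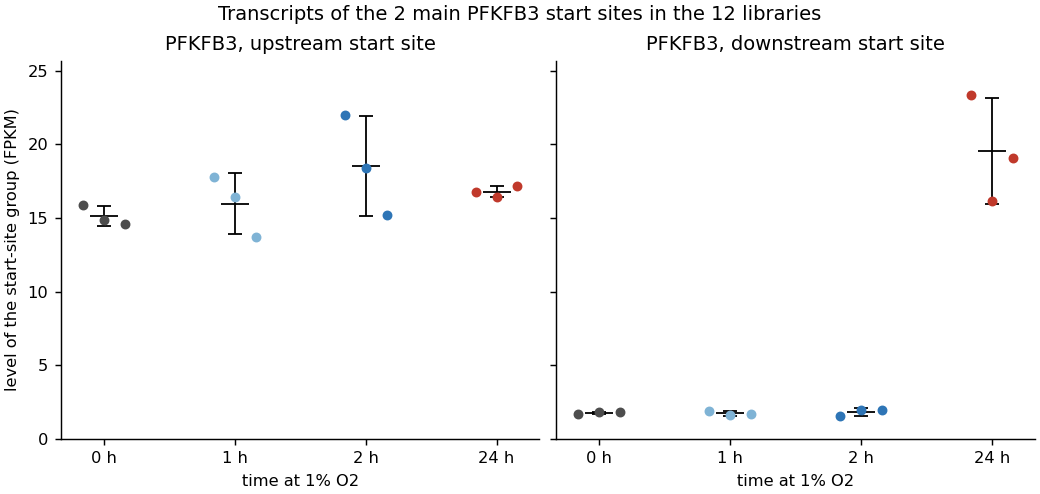
FPKM (y axis, from 0, shared by both panels) of the transcripts that begin at the upstream and at the downstream start site of PFKFB3 in the 3 libraries of each time point, with the mean and SD (bars). The downstream panel moves from below 2 FPKM to between 16.2 and 23.3 at 24 h, and the upstream panel stays between 13.7 and 21.995.

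The RefSeq windows at these 2 start sites are given for comparison, in the format used above, since the sites responded differently.
PFKFB3 upstream start site, GRCh37 chr10:6186634-6186933, plus strand: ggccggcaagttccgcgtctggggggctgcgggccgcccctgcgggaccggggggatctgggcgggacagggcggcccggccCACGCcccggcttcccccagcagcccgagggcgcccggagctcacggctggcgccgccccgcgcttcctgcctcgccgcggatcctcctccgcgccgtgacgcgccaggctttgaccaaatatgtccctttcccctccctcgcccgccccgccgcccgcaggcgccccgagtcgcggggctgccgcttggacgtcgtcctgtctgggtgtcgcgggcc
PFKFB3 downstream start site, GRCh37 chr10:6244645-6244944, plus strand: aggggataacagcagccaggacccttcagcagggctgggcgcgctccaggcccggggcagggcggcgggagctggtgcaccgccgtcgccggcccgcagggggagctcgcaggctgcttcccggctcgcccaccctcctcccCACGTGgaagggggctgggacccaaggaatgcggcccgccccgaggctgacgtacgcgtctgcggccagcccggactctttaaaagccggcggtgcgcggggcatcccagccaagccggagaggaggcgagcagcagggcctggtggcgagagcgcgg
The start site of the upstream window lies 13 bases from that of ENST00000379789, and the start site of the downstream window is the first base of ENST00000379775. A single GCGTG on the opposite strand was found upstream, at position −168 relative to the start site. Downstream, the letters CACGTG were found at position −108, which counts as 2 overlapping matches of ACGTG. That palindrome was also present in 1 of the 3 windows of PDK2, not the one at its leading start site, and in the window of PDP2, and neither gene was called. How the palindrome relates to a call was not tested, and its share over all windows was not counted.

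PFKFB4 kept 1 main start site, and further transcript forms had more signal at 24 h. The main group, which begins at position 48594236 of chromosome 3 (GRCh37), held 96.0% ± 1.68 of the gene at 0 h and 91.5% ± 0.552 at 24 h (mean ± SD, n = 3 each), and its tested usage was 0.64 (SE 0.30; limma, adjusted p = 0.21), opposite in sign to the share. It was 1.19 with the constant 1 (limma, adjusted p = 0.0071), 1.39 in limma's diffSplice (adjusted p = 0.0085) and −0.51 with the constant 0.1 (limma, adjusted p = 0.55), so no direction is given for it. Its reference transcript ENST00000232375, which codes for protein, measured 2.76, 2.62 and 3.12 FPKM at 0 h and 30.6, 35.5 and 46.2 at 24 h. An assembled form of 3354 bases that shares junctions with ENST00000541519 was listed at 0 in all libraries at 0 h, at no more than 0.264 FPKM at 1 h and 2 h, and at 15.7, 20.1 and 16.6 FPKM at 24 h. That form made up 25.9% ± 3.65 (SD, n = 3) of PFKFB4 at 24 h. The coding transcript ENST00000412035 went the other way, with 0, 1.40 and 0.806 FPKM at 0 h and 0 in all libraries at 24 h. How FPKM was divided among forms at the low levels before 24 h could not be checked against reads.

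**Figure D4:**
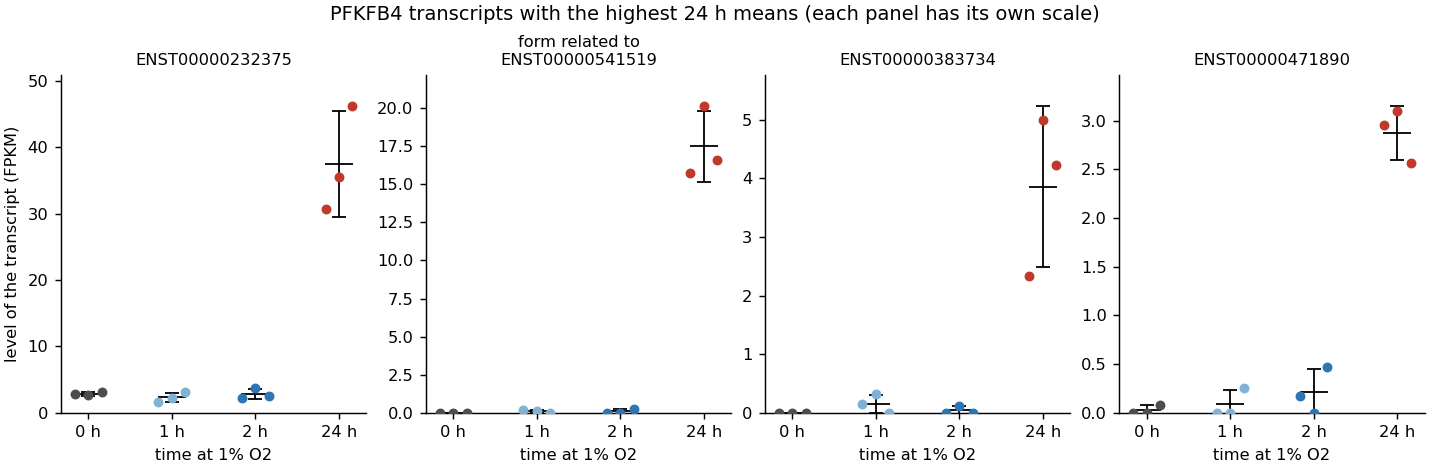
FPKM (y axis, from 0, a separate scale per panel) of the 4 PFKFB4 transcripts with the highest mean at 24 h, in the 3 libraries of each time point, with the mean and SD (bars). The reference transcript ENST00000232375 is present at all times, while the other 3 are at or near 0 at 0 h, low at 1 h and 2 h and higher at 24 h.

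Transcripts annotated as coding made up 91.2% ± 5.97 of PFKFB4 before hypoxia, 79.5% ± 6.97 after 1 h, 74.1% ± 16.5 after 2 h and 60.3% ± 5.10 after 24 h (mean ± SD, n = 3 each). Assembled forms of the kind above made up 0.273% ± 0.473, 4.38% ± 3.11, 6.18% ± 4.02 and 28.3% ± 3.53 at these times (mean ± SD, n = 3 each). Whether those forms code for protein was not examined. Transcripts whose reference is not in the annotation used made up 5.83% ± 3.76, 6.05% ± 5.25, 2.70% ± 3.49 and 1.69% ± 0.425 (mean ± SD, n = 3 each). Annotated transcripts of every other type held 2.66% ± 2.40, 10.1% ± 1.85, 17.0% ± 11.8 and 9.72% ± 1.14 (mean ± SD, n = 3 each). This class takes in retained introns and forms with no defined coding sequence. Its mean share was highest at 2 h, when the gene was low and the libraries spread widely. In this class, the retained-intron transcript ENST00000471890 measured 0, 0 and 0.0815 FPKM at 0 h and 2.96, 3.09 and 2.56 at 24 h. The retained-intron transcript ENST00000478516, which forms a start-site group of its own at position 48563505, had 0, 0.108 and 0 FPKM at 0 h, 0.0480, 0.254 and 0.704 at 2 h and 1.12, 2.58 and 2.60 at 24 h.

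That small group shows how the constant enters a ratio. Its share of PFKFB4 was 0.805% ± 1.39 before hypoxia, 7.85% ± 7.40 after 2 h and 2.99% ± 0.876 after 24 h (mean ± SD, n = 3 each), yet its tested usage was −1.71 (SE 0.34; limma, adjusted p = 0.011), because 0.5 is larger than its level at 0 h. With 0.1 in place of 0.5 the value was −0.05 and the call was lost (limma, adjusted p = 0.98). The PDP1 group, led by ENST00000518573, held 0.288% ± 0.131 of that gene at 0 h and 1.04% ± 0.296 at 24 h (mean ± SD, n = 3 each). Its usage of 1.40 (SE 0.39; limma, adjusted p = 0.043) lost the call in 11 of 21 alternatives.

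The window at the main PFKFB4 start site is shown since nearly all transcripts of the most increased gene begin there.
PFKFB4, GRCh37 chr3:48594187-48594486, minus strand: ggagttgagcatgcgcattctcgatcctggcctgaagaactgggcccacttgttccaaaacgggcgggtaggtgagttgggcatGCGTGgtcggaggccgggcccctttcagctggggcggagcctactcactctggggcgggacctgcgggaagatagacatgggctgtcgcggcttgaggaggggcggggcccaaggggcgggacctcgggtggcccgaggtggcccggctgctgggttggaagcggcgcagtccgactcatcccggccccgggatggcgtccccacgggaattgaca
It held 1 GCGTG, at position −166 relative to the start site, and no ACGTG. Of the 9 genes, 7 matched the table of windows, and PFKFB2 and PDP1 did not.

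Outside PFKFB3 and PFKFB4, that PDP1 group was the only one of the tested groups past the threshold with the constant 0.5. The main PDK1 group, led by the coding transcript ENST00000410055, held 70.8% ± 27.9 at 0 h and 76.6% ± 6.90 at 24 h (mean ± SD, n = 3 each; usage limma, adjusted p = 0.38), so most of the PDK1 transcripts at 24 h began at the site in use at 0 h. ENST00000410055 itself measured 0.962, 0.657 and 1.20 FPKM at 0 h and 6.997, 10.2 and 14.1 at 24 h. A small PDK1 group, with 3.803% ± 1.63 at 0 h and 10.2% ± 3.37 at 24 h (mean ± SD, n = 3 each), passed with the constant 1 (usage −1.08; limma, adjusted p = 0.04), and its usage was 0.57 with 0.1 (limma, adjusted p = 0.69). That group was above 0.5 FPKM in 1 library outside 24 h and entered the test only through those of 24 h, so its usage is given as a value and not as a result. PDK3 had 2 groups that were tested, and the one led by ENST00000441463 held 38.8% ± 17.2 at 0 h and 57.9% ± 5.41 at 24 h (mean ± SD, n = 3 each), a difference that did not pass (usage 0.89, SE 0.40; limma, adjusted p = 0.19). For PDK2 the 3 main groups had adjusted p between 0.6 and 0.92 (limma), and the retained-intron transcript ENST00000505897, which is a group by itself, held 26.6% ± 3.45 at 0 h and 27.4% ± 5.15 at 24 h (mean ± SD, n = 3 each). The 4 main groups of PDP1 held 44.04%, 26.2%, 14.8% and 13.1% of that gene at 0 h against 39.9%, 31.6%, 16.6% and 9.44% at 24 h, with adjusted p of 0.49 or more (limma). PDP2 had 4 groups, none past the test. PDK4 and PFKFB2 had no more than 1 group above the filter and were not tested.

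Paralogue choice was taken as the share of each gene in the summed FPKM of its family. The PDK sum was 18.3 ± 1.47 FPKM before hypoxia, 18.9 ± 3.97 after 1 h, 20.1 ± 2.57 after 2 h and 48.7 ± 5.44 after 24 h (mean ± SD, n = 3 each). PDK2 held 68.3%, 68.1% and 70.8% of it at 0 h, 63.5%, 67.5% and 65.4% at 1 h, 57.2%, 57.5% and 57.1% at 2 h and 33.8%, 22.3% and 19.2% at 24 h. The libraries of the 4 time points did not overlap, so that the PDK2 share was lower at each later time. PDK1 held 19.8%, 10.5% and 11.1% at 0 h and 41.6%, 47.2% and 50.1% at 24 h, when it led the family in every library. PDK3 held 16.3% ± 4.49 at 0 h and 25.5% ± 3.57 at 24 h, and PDK4 held 0.880% ± 0.473 and 3.12% ± 0.236 (mean ± SD, n = 3 each).

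The lead also passed from PFKFB3 to PFKFB4. The PFKFB sum was 25.1 ± 0.517 FPKM before hypoxia, 24.7 ± 1.40 after 1 h, 28.3 ± 2.41 after 2 h and 108 ± 8.70 after 24 h (mean ± SD, n = 3 each). PFKFB3 held 71.5%, 65.6% and 65.7% at 0 h and 40.4%, 30.7% and 31.1% at 24 h, although its own level rose. PFKFB4 held 11.5%, 17.5% and 18.2% at 0 h and 56.6%, 66.8% and 65.5% at 24 h. PFKFB2 held 16.7% ± 0.464 at 0 h and 2.99% ± 0.477 at 24 h (mean ± SD, n = 3 each).

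Between 0 h and 24 h the share differed by 32.5 points for PDK1, −43.9 for PDK2, −33.5 for PFKFB3 and 47.2 for PFKFB4. In all 9 shares compared, the 3 libraries at 24 h did not overlap those at 0 h. The two-sided exact permutation test gave p = 0.1 for each, the smallest value that 3 libraries against 3 can give, with an adjusted p of 0.1. PDP1, which differed by only 0.771 points, was among them, so the test does not set the larger shifts apart. Shares within a family are not independent of each other. In the PDP family PDP1 held 98.1% ± 0.209 at 0 h and 98.9% ± 0.118 at 24 h (mean ± SD, n = 3 each).

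**Figure D5:**
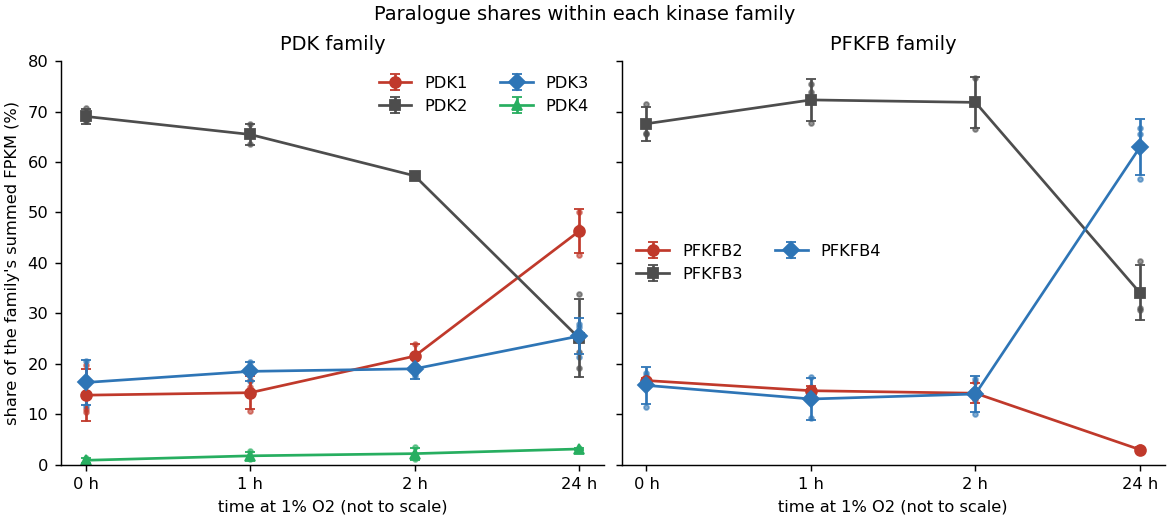
Share of each gene in the summed FPKM of its kinase family (y axis, %) at each time point (x axis, not to scale), as the mean with the SD (bars) and the 3 libraries (small points). PDK1 passes PDK2 and PFKFB4 passes PFKFB3 between 2 h and 24 h.

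The summed kinases over the summed phosphatases, PDK over PDP, gave a ratio of 0.0579 ± 0.00738 before hypoxia, 0.0547 ± 0.00624 after 1 h, 0.0604 ± 0.00433 after 2 h and 0.122 ± 0.0182 after 24 h (mean ± SD, n = 3 each). The libraries at 24 h, from 0.103 to 0.139, were all above those at 0 h, from 0.0507 to 0.0654. PDK1, PDK3 and PDK4 together were 0.449 ± 0.0311 of PDK2 before hypoxia, 0.529 ± 0.0468 after 1 h, 0.746 ± 0.00656 after 2 h and 3.22 ± 1.15 after 24 h (mean ± SD, n = 3 each). PFKFB4 was 0.235 ± 0.0641 of PFKFB3 at 0 h and 1.89 ± 0.428 at 24 h (mean ± SD, n = 3 each). PDP1 makes up nearly all of the PDP sum, so the first of these ratios rests on the PDP1 level, which could not be checked against reads. These are ratios of RNA and were not set against enzyme activity.

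Around these enzymes, 27 further genes of 5 lists were examined, and of the 23 that were tested 3 were called higher and 4 lower at 24 h, with a median log2 fold change of 0.00 against −0.05 over all genes. With so few genes these counts are not set apart from the shares over all genes tested, 8.76% higher and 9.51% lower. In the pyruvate dehydrogenase complex itself, the target of the PDK enzymes, 1 of 6 tested genes was called, DLAT, the acetyltransferase core, which fell from 52.1 ± 1.91 to 22.02 ± 3.24 FPKM (mean ± SD, n = 3 each; log2 −1.23; limma, adjusted p = 2.4e-06). PDHA1, the subunit that PDK enzymes phosphorylate, was 117 ± 3.99 at 0 h and 76.6 ± 4.95 at 24 h (mean ± SD, n = 3 each; log2 −0.61; limma, adjusted p = 7.6e-05) and was below the size needed. The list had a median of −0.42.

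Of 7 genes of pyruvate and lactate handling, 2 rose and 2 fell. LDHA, which turns pyruvate into lactate, rose from 857 ± 46.4 to 2831 ± 388 FPKM (mean ± SD, n = 3 each; log2 1.72; limma, adjusted p = 4e-07), and PC, pyruvate carboxylase, rose by 1.68 (limma, adjusted p = 0.00063). MPC1, a subunit of the mitochondrial pyruvate carrier, fell by 1.11 on the log2 scale (limma, adjusted p = 0.00033), and SLC16A1, a monocarboxylate transporter, fell by 1.06 (limma, adjusted p = 2.9e-05). The other 3 were below the size needed, with log2 changes of 0.86 for the lactate exporter SLC16A3 (limma, adjusted p = 8.9e-06), −0.55 for MPC2 (limma, adjusted p = 0.016) and −0.43 for LDHB (limma, adjusted p = 0.00097).

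At the phosphofructokinase step, which the PFKFB product activates, 4 of 7 genes were tested. PFKL, the liver form of phosphofructokinase, rose from 31.9 ± 3.00 to 78.9 ± 4.96 FPKM (mean ± SD, n = 3 each; log2 1.29; limma, adjusted p = 1.2e-05). TIGAR, a phosphatase that breaks down fructose 2,6-bisphosphate and is listed under the older name C12orf5, fell from 22.5 ± 1.07 to 6.71 ± 2.17 FPKM (mean ± SD, n = 3 each; log2 −1.71; limma, adjusted p = 8.9e-06). PFKP had a log2 change of 0.97 and PFKM of −0.20, and neither was called. The related kinase BCKDK and phosphatase PPM1K of branched-chain amino acid breakdown had 0.95 and 0.72, both below the size needed. Of the 4 regulators PRKAA1, PRKAA2, AKT1 and FZR1, none was called, and PRKAA1 had the largest change with −0.56 (limma, adjusted p = 0.0017).

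The genes whose course over the 12 libraries was most like that of a given member were found by the root-mean-square difference of log2(FPKM + 0.5), each gene taken relative to its own 0 h mean. For PDK1 they were MXI1, C4orf3, PPP1R3B, BNIP3 and HLA-V, at 0.25 to 0.34 against a median of 1.60 over all genes. PFKFB4 was closest to RP11-565A3.2, ENO2, PLOD2, UPK1A-AS1 and CXCR4, at 0.26 to 0.43 against a median of 2.05. PFKFB3 was closest to ZBTB44, DUSP4, SOCS5, NAB1 and KIAA2013, at 0.08 to 0.11 against 0.67. Among all genes, PDK1 was number 47 in likeness to PFKFB4, PDK3 number 208, PDK4 number 441 and PFKFB3 number 1328. HLA-V is a pseudogene that shares sequence with other HLA genes, so its value is uncertain.

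As a check of the labels, the hypoxia targets VEGFA, NDRG1, ANKRD37, ADM and BNIP3 were called higher at 24 h, with log2 fold changes from 1.90 to 5.45. A further one, CA9, was called too, but with 0.0790 ± 0.0578 FPKM at 0 h and 4.62 ± 1.13 at 24 h (mean ± SD, n = 3 each) it passed the filter only through its 24 h libraries and had to differ. All 5 epithelial markers were expressed, with a sum between 1998 and 2820 FPKM in every library. CDH1 among them rose by 1.76 on the log2 scale (limma, adjusted p = 8.5e-07). PTPRC and CD3E of the leukocyte list, COL1A2 and DCN of the fibroblast list and all 3 endothelial markers were at or below 0.5 FPKM in every library. CD68 and COL1A1, the remaining gene of the leukocyte and of the fibroblast list, were called higher together with the 5 members, at 10.2 ± 3.68 against 2.01 ± 0.270 FPKM and 6.87 ± 1.67 against 1.92 ± 0.206 FPKM (mean ± SD, n = 3 each), and their part in the results was not tested.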

How the data were processed

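The authors deposited FPKM values (fragments scaled for transcript length and library depth) for each of 293768 merged transcripts in 12 libraries, with a table of class code, nearest reference, gene name, start-site group and transcript length in bases. Per the study's methods, strand-specific poly(A) reads were aligned to hg19 (GRCh37) with Mapsplice, and transcripts were assembled per sample with Cufflinks, merged and compared with Ensembl. The submitters' notes also name CASAVA 1.8.2. No scaling between libraries is named, and depth cannot be recovered from these estimates, so no counting interval is given and precision rests on 3 biological replicates per time point.

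From these, FPKM was summed per gene name and per start-site group over the 286562 transcripts of class code = or j, as deposited. Genes and groups above 0.5 FPKM in at least 3 libraries were tested with limma 3.58.1 (lmFit, eBayes with trend) in R 4.3.3 with the data.table package (1.17.8), on all 12 libraries, without a block. Thresholds were an absolute log2 fold change above 1 with a Benjamini-Hochberg adjusted p under 0.01 for genes, and an adjusted p under 0.05 for start-site usage. All p-values are two-sided. Shares were compared by exact permutation tests. For positions and transcript types, the nearest reference transcript was looked up in GENCODE release 44 (GRCh37 lift), and promoter windows were taken from RefSeq. Python 3.11.15, pandas 2.3.3 and numpy 2.4.6 were used for tables, scipy 1.17.1 for permutation tests and matplotlib 3.10.9 for figures. Steps across many genes were tested on simulated data. For the start-site step, the first simulation, with residual spreads shuffled over groups, fell short of the recovery set for it, and the step passed narrowly once each group kept its own spread, with the test and the recovery required unchanged.

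Named were the 9 genes, their start-site groups with at least 10% of the gene and 0.5 FPKM at any time point, pathway genes called at 24 h (or the largest change of a list), and the 5 most similar courses of PDK1, PFKFB3 and PFKFB4. Other transcripts and pathway genes were named after their values were seen. The members and lists were chosen with earlier results of these data known. Alternatives changed the constant, filter, transcripts summed, scaling, samples and replicates. The labels tie no replicate number to a shared day or batch. Deviations of same-numbered libraries from their time-point means correlated at 0.246, 0.129 and 0.362 between 0 h and 2 h, all over 0.1, so the numbers were taken as pairs there, but at 0.298, 0.0954 and 0.340 between 0 h and 1 h and at −0.00078, 0.0055 and 0.242 between 0 h and 24 h, where they were not. Reads were not analysed here.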

Additional observations from a re-analysis of the deposited data

Results flagged for a closer look

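Transcripts beside the 9 genes, which are not counted to them and are not described above, had more signal at 24 h than in the 0 h control libraries at 3 loci. They were singled out after their values were seen, so no test is given for them, although the named ones were part of the fit over all genes.

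AC093818.1, annotated as PDK1-AS1, is the noncoding gene on the strand opposite PDK1 that overlaps its start. It measured 0.206, 0.175 and 0.625 FPKM at 0 h, 0.351, 0.754 and 0.455 at 2 h and 3.47, 4.22 and 3.41 at 24 h, a 24 h mean of 3.70 against 0.335 at 0 h. The libraries at 24 h did not overlap those at 0 h. GS1-358P8.4, at the PDK3 locus, measured 0.316, 0.164 and 0.334 FPKM at 0 h and 0.956, 2.02 and 2.60 at 24 h, a mean of 1.86. Unannotated transcripts at the PFKFB4 locus summed to 0.0535, 0 and 0 FPKM at 0 h and 0.513, 2.05 and 2.40 at 24 h, a mean of 1.65. The 24 h values of the last 2 spread widely, and their lowest library was nonetheless above the highest at 0 h.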

How the results depend on the processing

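With 11 other settings and each of the 12 libraries left out in turn, PDK1, PDK3 and PFKFB4 kept their calls at 24 h, with log2 fold changes of 2.76 to 3.22, 1.72 to 2.04 and 3.49 to 4.26. PDK4 was called each time too, with 1.11 to 2.68. It passed the filter only through its 24 h libraries, so its calls are not counted as support. PFKFB3 ranged from 0.9995 to 1.24 and lost its call under TPM over transcripts of at least 300 bases, where 40.7% of calls were higher against 48.0% as reported, and the median of all genes was −0.13. Median-of-ratios scaling gave 54.5% higher and the same 5 members. No result called as reported changed direction. Of those not called, the main PFKFB4 group and a small PDK1 group were called with the constant 1 (1.19 and −1.08) and had the opposite sign with 0.1 (−0.51 and 0.57).

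Genes called at 1 h numbered 0 without a filter, with transcripts of at least 300 bases, under that TPM, with the 6 libraries of a contrast, and with the replicate block, and 0 to 1 with a library left out (0 without any 0 h replicate or without 1 h replicate 1 or 2). Genes called at 2 h numbered 6 with the constant 0.1, 0 without a filter and with 6 libraries, 5 with filtered transcripts and under TPM, 7 with transcripts of at least 300 bases, and 0 to 6 with a library left out (0 without any 0 h replicate or 2 h replicate 1, 1 without 1 h replicate 2 or 24 h replicate 2, 5 without 1 h replicate 3, 6 without 1 h replicate 1 or 2 h replicate 2). Start-site groups with changed usage numbered 1951 with the constant 0.1, 4509 with 1, 14756 without a filter, 1166 with 6 libraries, and 1582 to 2689 with a library left out (1582 without 0 h replicate 1, 1739 without 0 h replicate 2, 1937 without 0 h replicate 3, 1752 without 24 h replicate 2). Among the members they numbered 2 with 0.1, 7 with 1 and 21 without a filter, and 3 to 5 with a library left out. More low groups enter without a filter, and the cause of the other shifts was not tested.

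The 24 h minus 0 h share moved to 0.436 for PDP1, −0.436 for PDP2, −11.3 for PFKFB2 and −38.5 for PFKFB3 with filtered transcripts, and to 0.405, −0.405, −15.2 and −24.0, with 39.3 for PFKFB4, over class code = alone. With the replicate block 4 genes and no member were called at 2 h, the comparison in which the numbers paired the samples, against 3 genes and no member without it. With the block 5 members were called at 24 h, as without it, among 1499 genes higher and 1607 lower, and 5 member groups changed usage among 2885. PDP1 kept its log2 fold change of 0.35, under the size needed for a call, and its adjusted p was 0.0015 with the block against 0.053 without it (limma).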

Other observations

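Neighbouring genes of 3 members were also read off, after their values were seen, so their levels are given as a description. They were part of the fit over all genes, and its results for them are not used here. YOD1, a deubiquitinase gene on chromosome 1 (GRCh37, 207217194 to 207226325, minus strand), which starts on the opposite strand close to the main start site of PFKFB2, measured 5.73 ± 0.345 FPKM at 0 h, 8.89 ± 2.09 at 2 h and 12.4 ± 1.83 at 24 h (mean ± SD, n = 3 each), while PFKFB2 itself was 4.18 ± 0.136, 3.98 ± 0.311 and 3.25 ± 0.704 (mean ± SD, n = 3 each). COL7A1, a collagen gene upstream of PFKFB4 on the same strand (chromosome 3, 48601506 to 48632762), measured 1.29 ± 0.150 FPKM at 0 h, 0.888 ± 0.196 at 2 h and 5.88 ± 0.486 at 24 h (mean ± SD, n = 3 each). ITGA6, an integrin gene upstream of PDK1 (chromosome 2, 173292082 to 173371187, plus strand), measured 42.0 ± 1.54 FPKM at 0 h and 74.3 ± 15.0 at 24 h (mean ± SD, n = 3 each).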
